A study of Xenopus tropicalis with 12 samples.

Results

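This comparison sets the liver of *Xenopus tropicalis* at the end of metamorphosis (stage 66, st66) against the liver of the premetamorphic tadpole (stage 54, st54), the net change from larva to juvenile frog. It uses 6 of the 12 RNA-seq libraries of the series, chosen by their labelled stage and treatment: st66 replicates 1 to 3 and st54 replicates 1 to 3. All 6 came from untreated wild-type animals with the same parents, and the series describes the 3 samples of a stage as taken from different animals. The other 6 libraries are stage 61 liver (st61) and stage 54 liver after 18 h in 10 nM T3, a thyroid hormone. They are not compared here, and st61 is used only to place the same genes on the way to stage 66.

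Metamorphosis in frogs is driven by thyroid hormone, which acts through nuclear receptors that bind DNA near their target genes and switch between repression and activation as the hormone arrives. The liver persists through this change but is rebuilt in function. It is known for turning from ammonia to urea as the waste form of nitrogen, for a switch from larval to adult blood proteins in the animal, and for taking on juvenile programmes of lipid, bile acid and xenobiotic metabolism.

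Total counts were 19812786, 7928459 and 8506341 in st66 replicates 1 to 3, against 23308776, 29387091 and 12481902 in st54 replicates 1 to 3. Levels are given as CPM, counts in each 1000000 on library sizes scaled by TMM. The floor of detection was set at 3 counts. In each 1000000 unscaled counts this was 0.151, 0.378 and 0.353 in the st66 libraries and 0.129, 0.102 and 0.24 in the st54 libraries. On the CPM scale used for levels, 3 counts were 0.12, 0.461 and 0.418 CPM in st66 replicates 1 to 3. The hepatocyte markers were present in all 6 libraries: alb, which encodes serum albumin, was at 9130, 19026 and 14147 CPM at st66, against 10898, 10528 and 8943 CPM at st54. St66 replicate 1 stood apart. Its Spearman correlation with st66 replicates 2 and 3, across genes, which are not independent, was 0.919 and 0.899, against 0.973 between replicates 2 and 3. Its correlation with the 3 st61 libraries was higher, at 0.932, 0.924 and 0.928, while st66 replicates 2 and 3 correlated with them at 0.902 to 0.937. Ribosomal protein genes took 8.04% of its counts, against 16.7% and 17.1% in st66 replicates 2 and 3, and 9.88%, 8.94% and 13% in st54. The labels give stage 66 for all 3 libraries, and whether its label is right was not tested. Many of the calls and list counts that this library changes are given with and without it. A call or count given once may still change without it. St54 replicate 3 also lay apart, with correlations of 0.937 and 0.94 with the other st54 libraries, which correlated at 0.982 with each other, and of 0.95 to 0.952 with the 3 libraries of T3-treated tadpoles. The labels give it as untreated. Replicate numbers do not pair the 2 stages. In whole liver, fewer cells of a type and less RNA per cell cannot be told apart.

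Of 14187 genes tested, 567 (4.0%) differed at an adjusted p under 0.05, and such genes are called. The quasi-likelihood test of edgeR with Benjamini-Hochberg adjustment is the source of every adjusted p given here, unless DESeq2 is named. 296 (2.09%) were higher at st66 and 271 (1.91%) were lower, and the 3 st66 libraries did not overlap the 3 st54 libraries in any of them. The changes that passed were large: the median was 7.02-fold among the genes that rose and 5.57-fold among those that fell, and the smallest were 2.03-fold and 1.99-fold. 139 genes rose and 103 fell by at least 8-fold. The median log2 difference over all genes tested was 0.00. A larger number, 2388 genes, had an unadjusted p under 0.05. 284 of the 296 and 233 of the 271 genes were also called in the same direction without st66 replicate 1. Without that library, 1554 genes (11%) were called, 877 (6.22%) higher and 677 (4.80%) lower. Without st54 replicate 3, 597 (4.06%) were called, 255 (1.74%) higher and 342 (2.33%) lower. With all 6 libraries DESeq2 called 1294 of 16344 genes (7.92%), 692 (4.23%) higher and 602 (3.68%) lower. Each fit tested its own set of genes, so the number of list members tested can differ between fits. The counts of list members given below stand against these shares of the same fit, and small counts can lie near them. Leaving out any 1 of st66 replicates 2 and 3 and st54 replicates 1 and 2 left 122 to 142 genes called higher and 78 to 131 called lower, so a call below is said to hold throughout only if it was made in all 6 fits that left out 1 library. This was so for 101 of the 296 and 69 of the 271 genes.

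**Figure D1:**
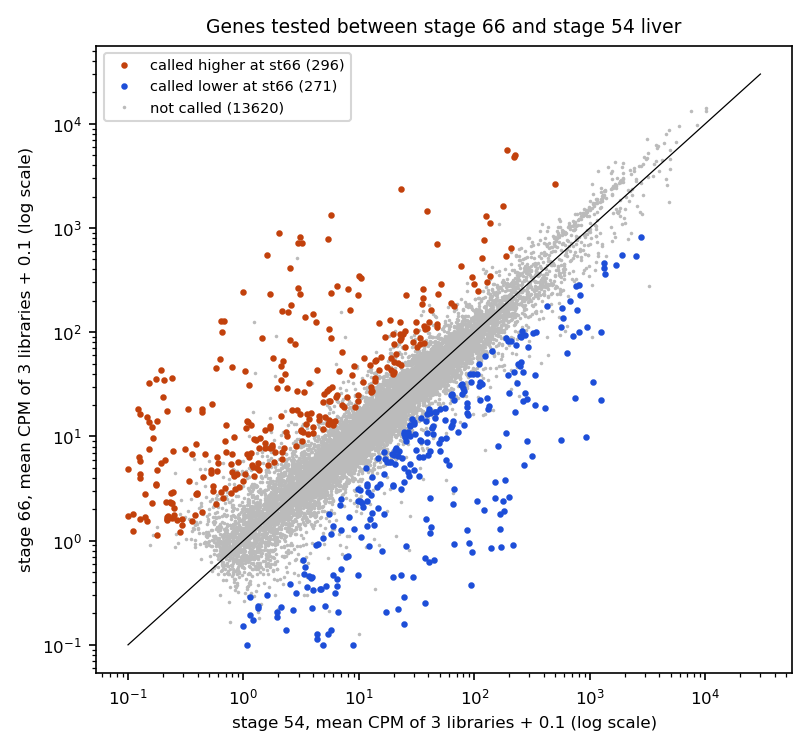
Mean CPM of the 3 st66 libraries (vertical axis) against mean CPM of the 3 st54 libraries (horizontal axis), both with 0.1 added and on log scales, for the 14187 genes tested; the line marks equal levels. The 296 genes called higher at st66 lie above the line and the 271 called lower lie below it, and both groups include genes of low and of high abundance.

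The 12 largest increases included oxidising enzymes such as cytochromes P450, digestive protease genes of the kind made in the pancreas, and single genes of lipid handling and transcription. hsd17b13, which encodes a protein of hepatocyte lipid droplets in mammals, was at 10.8, 17.4 and 25.9 CPM in st66 replicates 1 to 3, against 0, 0.0643 and 0 CPM in st54 replicates 1 to 3. It lies on chromosome 1, 87299708 to 87327659, in coordinates of the deposited table. All 3 st54 libraries were under the floor, and 568 counts against 2 gave a ratio of 501 (95% counting interval 138 to 4147; adjusted p = 0.00121). fmo5.2, a flavin monooxygenase gene (chromosome 4, 119459946 to 119478575), was the most even of the 12 largest increases: 247, 229 and 228 CPM at st66, against 0.946, 1.16 and 2.72 CPM at st54. Its mean was 235 ± 10.6 CPM at st66, against 1.61 ± 0.968 CPM at st54 (SD, n = 3 each), a 151-fold rise (log2 difference 7.24, SE 0.5; adjusted p = 0.000711). The lowest st66 library of fmo5.2 stood more than 10 times above its highest st54 library. The calls of hsd17b13 and fmo5.2 held throughout. fmo5.2 belongs to a family of similar genes, so its counts could hold reads of another copy.

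zbtb20 encodes a zinc finger repressor that in mouse liver silences the fetal gene Afp. It was at 22.6, 11.2 and 18.5 CPM at st66, against 0.123, 0 and 0.233 CPM at st54 (770 counts against 6, a ratio of 226 with a 95% counting interval of 104 to 619; adjusted p = 0.00264). The call of zbtb20 held throughout. 33 genes called higher had no more than 3 counts in each st54 library, 24 of them with a gene symbol, which makes them genes read at st66 and at or under the floor at st54.

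**Figure D2:**
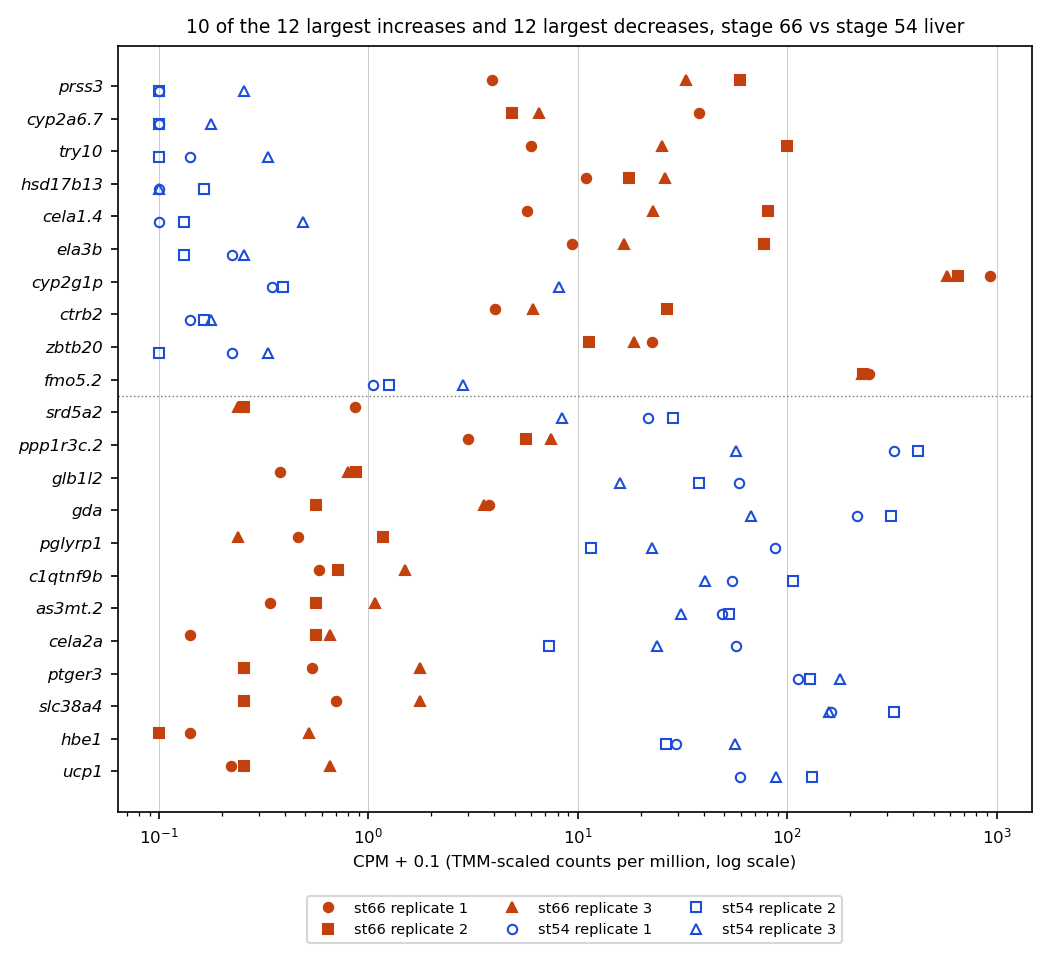
CPM plus 0.1 (log axis) in each library for 10 of the 12 largest increases (upper rows) and the 12 largest decreases (lower rows); filled symbols are the 3 st66 libraries and open symbols the 3 st54 libraries. The groups do not overlap in any of these genes, as the rule that chose them required. fmo5.2 has its st66 libraries almost on one point (228 to 247 CPM), and the protease genes prss3, try10 and cela1.4 have theirs spread over more than 10-fold.

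The 12 largest decreases were of varied function and included an uncoupling protein, a transporter, a receptor, several enzymes, a globin and an elastase. ucp1, which encodes the uncoupling protein that lets protons leak across the inner mitochondrial membrane (chromosome 1, 60473690 to 60480530), was at 0.12, 0.154 and 0.557 CPM at st66, against 59.5, 131 and 88.6 CPM at st54. That is 8 counts against 6664, and a ratio of 472 with a 95% counting interval of 240 to 1094 (log2 difference -8.65, SE 0.62; adjusted p = 0.000711). slc38a4, an amino acid transporter of liver, was at 0.6, 0.154 and 1.67 CPM at st66, against 162, 323 and 158 CPM at st54 (274-fold lower at st66; adjusted p = 0.00151). ptger3, a receptor for prostaglandin E2, was at 0.44, 0.154 and 1.67 CPM at st66, against 112, 128 and 178 CPM at st54 (199-fold lower; adjusted p = 0.0015). The counts at st66 were 3, 1 and 4 for ucp1, 15, 1 and 12 for slc38a4 and 11, 1 and 12 for ptger3, so replicate 2 was under the floor in all 3 genes and every st54 library was at 59.5 CPM or more. as3mt.2, named for an arsenic methyltransferase, was at 0.24, 0.461 and 0.975 CPM at st66, against 48.8, 52.7 and 31 CPM at st54 (adjusted p = 0.00117). c1qtnf9b, of the family of adiponectin-like secreted proteins, was at 0.48, 0.615 and 1.39 CPM at st66, against 54.3, 106 and 40.6 CPM at st54 (adjusted p = 0.00162). srd5a2, a steroid 5-alpha reductase, was at 0.76, 0.154 and 0.139 CPM at st66, against 21.6, 28.4 and 8.31 CPM at st54 (adjusted p = 0.00678). These 6 calls held throughout, as did those of gda, a guanine deaminase, and glb1l2, which fell 74.6-fold and 74.3-fold.

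The calls of 2 further genes of this group did not hold throughout. pglyrp1, a secreted peptidoglycan recognition protein, was at 0.36, 1.08 and 0.139 CPM at st66, against 87.4, 11.4 and 22.4 CPM at st54 (adjusted p = 0.0158). Its adjusted p was between 0.0517 and 0.0628 without st66 replicate 2 or replicate 3. ppp1r3c.2, a subunit that directs protein phosphatase 1 to glycogen, was at 2.88, 5.53 and 7.38 CPM at st66, against 322, 420 and 56.8 CPM at st54 (51.7-fold lower; adjusted p = 0.011, and 0.0626 without st66 replicate 2). All st66 libraries of both genes lay below all st54 libraries, which the rule that named them required.

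The genes that gained most in abundance included 2 globins and the 4 genes that follow. ptx, of the pentraxin family of secreted pattern recognition proteins (chromosome 4, 128348958 to 128387472), was at 4804, 6338 and 3985 CPM at st66, against 243, 203 and 234 CPM at st54 (22.2-fold higher; adjusted p = 0.00145). inmt, an amine N-methyltransferase, was at 512, 1854 and 2024 CPM at st66, against 45.1, 41.3 and 29.7 CPM at st54 (37.8-fold higher; adjusted p = 0.00479). idh2, the mitochondrial NADP-dependent isocitrate dehydrogenase, was at 687, 1228 and 1400 CPM at st66, against 141, 122 and 150 CPM at st54 (8.03-fold higher; adjusted p = 0.00583). The lowest st66 library was replicate 1 in inmt and idh2. bhmt, which remethylates homocysteine with betaine, was at 840, 1401 and 1664 CPM at st66, against 76.8, 86.7 and 216 CPM at st54 (adjusted p = 0.0158). The first 3 of these calls held throughout. That of bhmt had an adjusted p of 0.0514 to 0.0723 without st66 replicate 2 or 3 or st54 replicate 1 or 2.

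The genes that lost most in abundance included enzymes, a protease inhibitor and a hormone carrier. a2ml1, a secreted alpha-2-macroglobulin-like protease inhibitor, was at 99.5, 130 and 73 CPM at st66, against 1203, 1262 and 1304 CPM at st54 (12.5-fold lower; adjusted p = 0.00205). ttr, transthyretin, which carries thyroid hormone in tadpole plasma, was at 125, 128 and 86.5 CPM at st66, against 1147, 897 and 784 CPM at st54 (8.35-fold lower; adjusted p = 0.00362). Both calls held throughout, with no st66 library near the st54 range. cat.1, a catalase gene, fell 3.4-fold to 731, 732 and 978 CPM at st66, against 2992, 2925 and 2383 CPM at st54 (adjusted p = 0.0272). ces3.4, a carboxylesterase, fell 3.69-fold (adjusted p = 0.0203), and adh1b, an alcohol dehydrogenase, fell 2.91-fold (adjusted p = 0.0448). Without st66 replicate 2 or 3 or st54 replicate 1 or 2 the adjusted p of cat.1, ces3.4 and adh1b lay between 0.08 and 0.187. cat.1 and ces3.4 have close copies, so their counts are uncertain.

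Among genes of thyroid hormone action, 3 of 23 tested rose and 2 fell, with a median log2 difference of -0.09. Without st66 replicate 1, 6 rose and 3 fell. The inducible receptor gene thrb was at 12.9, 13.2 and 15.5 CPM at st66, against 0.946, 1.48 and 0.466 CPM at st54 (13.7-fold higher; adjusted p = 0.00377). dio2, the deiodinase that makes active hormone, was at 6.80, 5.84 and 8.36 CPM at st66, against 1.73, 1.38 and 2.17 CPM at st54 (4-fold higher; adjusted p = 0.0178). dio3, the deiodinase that inactivates the hormone, was at 5.96, 14.1 and 50 CPM at st66, against 877, 931 and 439 CPM at st54 (32.3-fold lower; adjusted p = 0.0196). The highest st66 library of dio3 was replicate 3. thra, the receptor gene of premetamorphic tissue, was at 1.96, 1.54 and 1.53 CPM at st66, against 3.29, 3.64 and 5.59 CPM at st54, and klf9, a direct response gene, at 8.88, 19.4 and 31.3 CPM, against 5.39, 8.62 and 8.31 CPM. Neither passed (adjusted p = 0.11 and 0.161), although neither gene's groups overlapped. klf9 was at 0.0251 without st66 replicate 1, and thra at 0.0703. In the fits with 9 and 12 libraries thra was at 0.0434 and 0.0109 and klf9 at 0.0602 and 0.02. The call of thrb held throughout, that of dio2 was lost without st66 replicate 2 or 3 or st54 replicate 1 or 2 (adjusted p 0.0582 to 0.0868), and that of dio3 without st66 replicate 2 or st54 replicate 1 or 2 (0.0501 to 0.0924).

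Of 38 liver transcription factors tested, 5 rose and 1 fell, with a median log2 difference of -0.01 (6 and 2 without st66 replicate 1, and 5 and 3 without st54 replicate 3). 3 of the 5 were of the nuclear factor I family, which binds DNA as dimers and acts in late organ maturation. nfic was at 131, 116 and 130 CPM at st66, against 3.21, 4.15 and 5.05 CPM at st54 (30.5-fold higher; adjusted p = 0.000618). nfix was at 42.9, 58.9 and 67.1 CPM at st66, against 1.85, 1.13 and 2.10 CPM at st54 (33.7-fold higher; adjusted p = 0.000711). nfic had the lowest adjusted p of the genes named here, its 3 st66 libraries lay within a narrow range, and both calls held throughout. nfib was at 37.7, 34.6 and 28.6 CPM at st66, against 13.3, 14.5 and 13.3 CPM at st54 (adjusted p = 0.0178, and 0.0834 to 0.103 without st66 replicate 2 or st54 replicate 1 or 2). The fourth family member, nfia, was at 14.8, 5.07 and 6.27 CPM at st66, against 8.85, 11.2 and 8.54 CPM at st54 (adjusted p = 0.941), so its groups overlapped. nfib and nfia were chosen after their values were seen. The other 2 factors that rose were zbtb20 and srebf1, the activator of fatty acid synthesis genes. The factor that fell was mlxipl, which responds to carbohydrate, at 6.92, 15.5 and 19.5 CPM at st66, against 71.8, 74.1 and 48.1 CPM at st54 (adjusted p = 0.0269, and 0.0834 to 0.102 without st66 replicate 2 or st54 replicate 1 or 2). hnf4a, a master regulator of hepatocytes, was not called, with 65.6, 70.1 and 81.2 CPM at st66, against 151, 165 and 92.3 CPM at st54 (adjusted p = 0.152, and 0.0482 without st54 replicate 3).

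esr1, the estrogen receptor through which frog liver makes yolk protein in females, was at 10.8, 8.30 and 9.61 CPM at st66, against 0.0411, 0 and 0.155 CPM at st54. The 394 counts against 3 gave a ratio of 232 with a 95% counting interval of 78.7 to 1128 (adjusted p = 0.00186), and the call held throughout. It was the 1 called gene of 28 tested in the growth hormone, IGF and steroid hormone axis (3.57%, against 4.0% of all genes tested). In that list 3 were called higher without st66 replicate 1. igf1 was at 20.6, 7.22 and 6.27 CPM at st66, against 21.3, 62.3 and 3.18 CPM at st54, with overlapping groups.

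Cytochromes P450 of families 1 to 4, which oxidise drugs, steroids and fatty acids, changed in both directions. 5 of 34 tested rose and 1 fell, and the list's median log2 difference was -0.42. cyp2g1p was at 935, 656 and 578 CPM at st66, against 0.247, 0.290 and 8 CPM at st54 (270-fold higher; adjusted p = 0.0265). St54 replicate 3 was the highest st54 library, and the adjusted p was 0.0551 to 0.0751 without st66 replicate 2 or 3 or st54 replicate 1 or 2. cyp2c19 was at 256, 306 and 275 CPM at st66, against 10.4, 6.05 and 2.49 CPM at st54 (43.7-fold higher; adjusted p = 0.00269), and its call held throughout. cyp2e1.2 rose 3.74-fold (adjusted p = 0.019, and 0.054 to 0.0701 without st66 replicate 2 or 3 or st54 replicate 1 or 2). Its coordinates on chromosome 5 overlap those of cyp2c19, so their reads could have been mixed. The others that rose, cyp2g1p, cyp2a6.7 and cyp2a6.8, lie close together on chromosome 8. The tandem copies cyp2a6.7 and cyp2a6.8 had 1024 and 159 counts over the 3 st66 libraries, against 1 count each over the st54 libraries. St66 replicate 1 held most of the counts of cyp2a6.7, at 37.9 CPM, against 4.76 and 6.41 CPM in st66 replicates 2 and 3, and its adjusted p of 0.0107 was 0.0581 without st54 replicate 3. The one that fell, cyp2c8l, was at 60.3, 121 and 92.5 CPM at st66, against 849, 906 and 386 CPM at st54 (adjusted p = 0.0144, and 0.0512 to 0.0629 without st66 replicate 2 or 3). The list had 5 members higher and 2 lower without st66 replicate 1, 5 higher and 5 lower without st54 replicate 3, and 7 higher and 9 lower by DESeq2, so the count of decreases turned on the setting.

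Conjugating enzymes also went both ways, with 2 of 28 tested higher and 2 lower (3 and 4 without st66 replicate 1). sult1c4, a sulfotransferase, was at 216, 133 and 119 CPM at st66, against 1.03, 1.32 and 4.66 CPM at st54 (69.6-fold higher; adjusted p = 0.00388). ugt3a2, a glycosyltransferase, had 61 counts over the st66 libraries and none over the st54 libraries, which makes it at least 35.9-fold higher against a floor of 3 counts over the group. Its st66 levels of 1.52, 2.15 and 1.25 CPM were low but all above the floor. mgst2, a microsomal glutathione transferase, was at 3.96, 2.46 and 3.06 CPM at st66, against 14.5, 15.1 and 13.4 CPM at st54 (4.45-fold lower; adjusted p = 0.00611). These 3 calls held throughout. gsto2, an omega-class glutathione transferase, fell 5.95-fold (adjusted p = 0.0102, and 0.0626 without st66 replicate 2).

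2 genes of bile acid conjugation rose. baat, which joins bile acids to an amino acid, was at 85.4, 113 and 120 CPM at st66, against 3.25, 3.73 and 9.16 CPM at st54 (20-fold higher; adjusted p = 0.0035), and its call held throughout. slc27a2, which activates very long fatty acids and bile acid precursors, was at 96.7, 164 and 213 CPM at st66, against 0.370, 0.483 and 5.28 CPM at st54 (83.4-fold higher; adjusted p = 0.0203). The call of slc27a2 was lost without st66 replicate 2 or 3 or st54 replicate 2 (0.0549 to 0.0638). abcc3, an export pump, fell 2.42-fold (adjusted p = 0.0254, and 0.0744 to 0.133 without st66 replicate 2 or 3 or st54 replicate 1 or 2). These were the 3 called of 24 tested in bile acid synthesis and transport, with a list median log2 difference of -0.40, and without st66 replicate 1 there were 3 higher and 3 lower. cyp7a1, whose enzyme limits the rate at which bile acids are made, chosen after its values were seen, was at 202, 30.4 and 38.3 CPM at st66, against 1362, 1646 and 112 CPM at st54. The groups overlapped because st54 replicate 3 lay below st66 replicate 1, and the adjusted p was 0.15, and 0.0683 without st54 replicate 3.

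With all 6 libraries cholesterol synthesis was the list with the most decreases: 6 of 34 tested fell, none rose, and the median log2 difference was -1.23. insig1, which retains the sterol sensor in the endoplasmic reticulum, was at 72.9, 61.3 and 56.5 CPM at st66, against 373, 761 and 751 CPM at st54 (9.87-fold lower; adjusted p = 0.00449). dhcr7, of the last step, was at 69.9, 76.4 and 69.5 CPM at st66, against 261, 369 and 241 CPM at st54 (4.04-fold lower; adjusted p = 0.00869). The others given here were pmvk, ebp and abcg8, the last of these an exporter of sterols and not a synthetic enzyme. The summed level of the list was 2836, 2443 and 2067 CPM at st66, against 7219, 7860 and 5510 CPM at st54. Of these 5 calls only that of insig1 held throughout. dhcr7 was at 0.0537 to 0.0603 without st66 replicate 2 or 3, and in these 2 fits pmvk, ebp and abcg8 were at 0.0811 to 0.114. pmvk and ebp were also lost without st54 replicate 1 or 2 (0.0602 to 0.0792), ebp without st54 replicate 3 (0.072), and abcg8 without st66 replicate 1 (0.0853). Over the 6 fits that left out 1 library, 1 to 16 members fell, the 16 without st66 replicate 1. sqle, chosen after its values were seen, was at 10.3, 0.154 and 0.696 CPM at st66, against 113, 49.7 and 7.77 CPM at st54 (adjusted p = 0.189, and 0.044 without st66 replicate 1).

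Fatty acid synthesis and storage had 5 of 40 tested members higher and 2 lower (4 and 3 without st66 replicate 1). srebf1 was at 117, 110 and 82.6 CPM at st66, against 32.1, 31.8 and 29.0 CPM at st54 (3.33-fold higher; adjusted p = 0.00846). fads2, a desaturase of polyunsaturated fatty acids, was at 397, 270 and 111 CPM at st66, against 28.2, 49.7 and 30.1 CPM at st54 (7.21-fold higher; adjusted p = 0.0231). The lipid droplet genes cidea and plin1 rose 3.21-fold and 10.1-fold at low levels, and fabp7, a fatty acid binding protein with 34, 6 and 6 counts at st66, against 2, 0 and 2 counts at st54, was the fifth. me1, malic enzyme, was at 18.1, 15.2 and 9.19 CPM at st66, against 71.6, 58.1 and 37.5 CPM at st54 (3.91-fold lower; adjusted p = 0.0234), and mlxipl was the other that fell. The srebf1 call had an adjusted p of 0.0503 to 0.0538 without st66 replicate 2 or st54 replicate 1 or 2. Each of the other named calls was also lost without st66 replicate 2 or st54 replicate 1 or 2, with an adjusted p of up to 0.103 for fads2, 0.105 for me1, 0.14 for cidea and 0.143 for plin1, or, for fabp7, with the gene no longer tested or at up to 0.127. fasn, the fatty acid synthase, was at 35.3, 2 and 2.09 CPM at st66, against 4.36, 2.28 and 2.8 CPM at st54, so that the st66 libraries themselves differed by more than 10-fold.

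In lipoprotein handling 1 of 29 tested rose and 1 fell (3 and 3 without st66 replicate 1). With all 6 libraries that is 6.9%, against 4.0% of all genes tested. The gene that rose was apoe, which encodes the apolipoprotein that brings remnant particles to their receptors (chromosome 7, 109270850 to 109276343). It was at 123, 290 and 287 CPM at st66, against 1.73, 2.54 and 4.74 CPM at st54 (78.8-fold higher; adjusted p = 0.00165). The call of apoe held throughout.

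In the urea cycle and nitrogen list 3 of 24 tested fell and none rose with all 6 libraries. Without st66 replicate 1 there were 2 higher and 7 lower, and DESeq2 with all 6 libraries also gave 2 higher and 7 lower. The cycle's entry enzyme cps1 was at 3783, 3920 and 3822 CPM at st66, against 1691, 1586 and 1036 CPM at st54, a 2.67-fold difference that did not pass (adjusted p = 0.0686) although the groups did not overlap. It passed without st66 replicate 1 (0.0246), with 9 and 12 libraries in the fit (0.0205 and 0.00278) and by DESeq2 (2.89e-05), and was at 0.137 to 0.259 without any 1 of the other 5 libraries. arg1, the liver arginase, was at 809, 302 and 674 CPM at st66, against 772, 983 and 726 CPM at st54 (adjusted p = 0.639). otc, the enzyme that makes citrulline, chosen after its values were seen, was at 217, 67.3 and 50.7 CPM at st66, against 122, 101 and 127 CPM at st54. Replicate 1 was above the st54 range and replicates 2 and 3 were below it, and the adjusted p was 0.978, and 0.0473 without st66 replicate 1. ass1, chosen after its values were seen, was at 704, 204 and 211 CPM at st66, against 20.2, 25.4 and 323 CPM at st54. Its st54 replicate 3 was the library that overlapped, and the adjusted p was 0.526 with it and 0.0422 without it. arg2, the mitochondrial arginase found outside the cycle, was at 0.12, 0.154 and 0.139 CPM at st66, against 2.39, 5.60 and 7.07 CPM at st54 (5 counts at st66, against 323 at st54; adjusted p = 0.00552), a call that held throughout. glud1, glutamate dehydrogenase, fell 3.59-fold to 210, 186 and 291 CPM, against 727, 772 and 971 CPM at st54 (adjusted p = 0.0207). gpt, an alanine transaminase, fell 3.22-fold (adjusted p = 0.0443). The calls of glud1 and gpt were lost without any 1 of st66 replicates 2 and 3 and st54 replicates 1 and 2, and for gpt also st54 replicate 3 (0.0561 to 0.136).

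Amino acid breakdown had 3 of 55 tested members higher and 3 lower, with a median log2 difference of -0.56. Without st66 replicate 1, 4 were higher and 9 lower, and DESeq2 called 5 higher and 12 lower. prodh, which starts proline breakdown, was at 1.08, 0.307 and 0.975 CPM at st66, against 11.4, 14.1 and 11.1 CPM at st54 (14.3-fold lower; adjusted p = 0.00357), and its call held throughout. gnmt, which uses up methyl groups by methylating glycine, was at 375, 648 and 602 CPM at st66, against 191, 143 and 225 CPM at st54 (2.91-fold higher; adjusted p = 0.0491). amt, of the glycine cleavage system, fell 3.04-fold (adjusted p = 0.0208). gnmt was lost without any 1 library other than st66 replicate 1 (0.0665 to 0.222), and amt without st66 replicate 2 or 3 or st54 replicate 1 or 2 (0.0628 to 0.113). Amino acid transporters had 1 of 36 tested higher and 5 lower (3 and 8 without st66 replicate 1). Beside slc38a4, slc1a5, a carrier of neutral amino acids, was at 126, 111 and 98.6 CPM at st66, against 686, 772 and 236 CPM at st54 (5.05-fold lower; adjusted p = 0.0366, and 0.116 to 0.152 without st66 replicate 2 or 3 or st54 replicate 1 or 2). slc7a15, an amino acid carrier, was the one that rose, to 12.6, 9.99 and 10.3 CPM at st66, against 2.18, 1.99 and 2.49 CPM at st54 (adjusted p = 0.00465), and its call held throughout.

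Of 45 genes of gluconeogenesis, glycolysis and glycogen tested, 1 rose and 2 fell (6.67%, against 4.0% of all genes tested). Without st66 replicate 1, 4 were higher and 7 lower, and DESeq2 called 3 higher and 10 lower. The list's median log2 difference was -0.39. Its summed level was 8230, 12885 and 14401 CPM at st66, against 21302, 20285 and 24252 CPM at st54, so all st66 libraries were lower in the sum. fbp1, which controls gluconeogenesis, was at 309, 358 and 563 CPM at st66, against 1133, 1149 and 1706 CPM at st54 (3.24-fold lower; adjusted p = 0.0491), and pgm1, which links glycogen to glycolysis, fell 2.14-fold (adjusted p = 0.0448). Leaving out any 1 library other than st66 replicate 1 took both past 0.05, to between 0.0585 and 0.211. fn3k, which phosphorylates glycated proteins, had 111 counts over the st66 libraries, against 1 over the st54 libraries (adjusted p = 0.00721). In fatty acid oxidation, ketogenesis and uncoupling, 1 of 46 tested rose and 2 fell (1 and 3 without st66 replicate 1). With all 6 libraries that is 6.52%, against 4.0% of all genes tested. Beside ucp1 the called genes were pyruvate dehydrogenase kinases, which switch off the entry of pyruvate into the mitochondrial cycle. pdk1 was at 115, 101 and 110 CPM at st66, against 34.9, 33.7 and 47.7 CPM at st54 (2.80-fold higher; adjusted p = 0.0173), and pdk4 was at 98.9, 89 and 120 CPM at st66, against 215, 233 and 325 CPM at st54 (2.51-fold lower; adjusted p = 0.0456). Their adjusted p was up to 0.104 and 0.207 with 1 library left out. pdk3, another kinase of this family, chosen after its values were seen, was at 4.44, 4.46 and 5.57 CPM at st66, against 2.14, 2.41 and 1.55 CPM at st54, and was not called (adjusted p = 0.093).

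Of 12 globins tested, 4 rose and 1 fell, and the others did not pass. hbg1 was at 3029, 7109 and 6599 CPM at st66, against 97.6, 275 and 199 CPM at st54 (29.3-fold higher; adjusted p = 0.0055). hba1 was at 2823, 5893 and 5538 CPM at st66, against 155, 308 and 202 CPM at st54 (21.5-fold higher; adjusted p = 0.00395). hbz was at 13.4, 12.8 and 28 CPM at st66, against 0.123, 0.193 and 0.699 CPM at st54 (60.4-fold higher; adjusted p = 0.00395). These 3 calls held throughout, and that of the fourth, hba-l5, was lost without st66 replicate 3 or st54 replicate 1 or 2 (0.0535 to 0.0867). hbe1 was at 0.04, 0 and 0.418 CPM at st66, against 29.5, 26.2 and 56.4 CPM at st54. Its 4 counts at st66 against 2259 at st54 gave a ratio of 320 (95% counting interval 125 to 1176; adjusted p = 0.00165), and the call held throughout. The abundant copies hba3 and hbd, chosen after their values were seen, had overlapping groups: hba3 was at 2318, 8576 and 8759 CPM at st66, against 3366, 3167 and 6556 CPM at st54. None of 18 markers of red cells other than globins was called (none at unadjusted p under 0.05, none by DESeq2, and 1 lower without st66 replicate 1). Their summed level was 2981 to 3872 CPM at st66, against 2311 to 4591 CPM at st54. The 5 called globins lie on chromosome 9, between 40356272 and 40963521, and globins are close copies, so reads could have been shared among them.

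xdh and hebp2, which come from different lists, fell steeply. Of 39 iron and heme genes tested, 1 rose and 1 fell (3 and 4 without st66 replicate 1). The 1 that rose was slc11a1 (3.08-fold; adjusted p = 0.0392, and up to 0.144 with 1 library left out), and the 1 that fell was hebp2. xdh was the 1 that fell of 10 pigment cell markers tested, of which 2 rose. xdh, xanthine dehydrogenase, which makes uric acid, was at 15.5, 13.1 and 23 CPM at st66, against 201, 237 and 234 CPM at st54 (13.1-fold lower; adjusted p = 0.00142). hebp2, a heme-binding protein, was at 16.8, 19.8 and 18.7 CPM at st66, against 527, 438 and 262 CPM at st54 (22.2-fold lower; adjusted p = 0.00123). No st66 library of either gene came near the st54 range, and both calls held throughout.

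Few genes of plasma defence proteins were called. Of 31 complement genes tested, 1 rose and 1 fell (2 and 1 without st66 replicate 1). With all 6 libraries that is 6.45%, against 4.0% of all genes tested, and without st66 replicate 1 11% of all genes tested were called. c1s, a protease of the classical pathway, rose to 182, 186 and 190 CPM at st66, against 29.8, 43.5 and 31.7 CPM at st54 (5.32-fold; adjusted p = 0.0035). fcn1, a ficolin that recognises microbial sugars, fell to 3.28, 2 and 2.09 CPM at st66, against 59.5, 45.3 and 19.1 CPM at st54 (16.2-fold; adjusted p = 0.00511). Both held throughout. None of 30 coagulation genes was called (9 had an unadjusted p under 0.05, and DESeq2 called 1 higher and 4 lower). Of these, 1 was called lower without st66 replicate 1 and 3 without st54 replicate 3. Of 26 acute phase and carrier genes the 1 called was ttr, beside which 3 were called higher without st66 replicate 1. None of 23 T and NK lymphocyte markers was called (1 at unadjusted p under 0.05, none by DESeq2). None of 24 antigen presentation genes was called (5 at unadjusted p under 0.05, and 1 higher by DESeq2), although their median log2 difference was 0.44. gpnmb, a glycoprotein of macrophages and pigment cells, was at 184, 208 and 97.8 CPM at st66, against 5.02, 5.28 and 14.4 CPM at st54 (20-fold higher; adjusted p = 0.00635), and its call held throughout. It was the 1 called of 23 macrophage markers tested (3 higher and 1 lower without st66 replicate 1). The summed level of that list overlapped, at 2404, 2942 and 2935 CPM at st66, against 2905, 2539 and 1856 CPM at st54. In this sum st66 replicates 2 and 3 were above the st54 range and replicate 1 was within it. rag1, the recombinase of developing lymphocytes, fell to 2.52, 1.08 and 0.975 CPM at st66, against 19.6, 7.72 and 9.63 CPM at st54 (adjusted p = 0.0247, and 0.0744 to 0.106 without st66 replicate 2 or 3 or st54 replicate 1). It was the 1 called of 17 B lymphocyte and plasma cell markers tested, and rag2 of that list was not called.

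Matrix genes were called in small numbers, and with all 6 libraries only as higher. Of 26 collagen chains tested, 3 rose and none fell, the median log2 difference was 1.2, and 15 had all 3 st66 libraries above all 3 st54 libraries, against 11% of all genes tested. DESeq2 tested 36 chains and called 13 of them higher and none lower, where it called 4.23% of 16344 genes higher. col3a1, of fibrillar collagen, was at 544, 398 and 589 CPM at st66, against 146, 102 and 104 CPM at st54 (4.34-fold higher; adjusted p = 0.0114, and 0.0723 without st54 replicate 2). The other 2, col6a1 and col18a1, rose 2.89-fold and 3.87-fold and were lost in 4 and 5 of the 6 fits that left out 1 library (up to 0.11 and 0.178). Summed over the chains, the level was 1396 to 2223 CPM at st66, against 368 to 826 CPM at st54. Of 56 other matrix genes, 4 rose and none fell (6 and 1 without st66 replicate 1, and 14 and 1 of 67 tested by DESeq2). mmp2, a gelatinase, was at 20.9, 12.6 and 14.9 CPM at st66, against 4.32, 2.22 and 3.81 CPM at st54 (4.72-fold higher; adjusted p = 0.0149), and its call held throughout. nid2, of the basement membrane, was at 146, 66.9 and 57.1 CPM at st66, against 16.2, 18.2 and 16.1 CPM at st54 (5.35-fold higher; adjusted p = 0.0166, and 0.055 to 0.0745 without any 1 of the st54 libraries). Of 20 markers of stellate cells and fibroblasts tested, 6 are themselves matrix genes of these 2 lists (dcn, lum, col1a1, col1a2, col3a1 and sparc), and the 1 of the 20 that was called was col3a1. The members outside these 2 lists, tested or not, summed to 606, 593 and 614 CPM at st66, against 554, 513 and 508 CPM at st54. Of the 14 of them that were tested, none was called, and 3 lay above st54 in all 3 st66 libraries. Their part in the matrix result was not tested.

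4 of 44 Wnt pathway genes tested rose and none fell (5 and 1 without st66 replicate 1). lrp5, a co-receptor, was at 74.1, 76.7 and 82 CPM at st66, against 19.3, 18.6 and 22.7 CPM at st54 (3.84-fold higher; adjusted p = 0.00377). axin2, a feedback inhibitor that the pathway itself induces, was at 6.44, 10.9 and 11.8 CPM at st66, against 0.411, 0.547 and 1.24 CPM at st54 (13.8-fold higher; adjusted p = 0.00769). dkk3, a secreted protein of the Dickkopf family, rose 7.91-fold (adjusted p = 0.00899). These 3 calls held throughout, and that of wnt11, a ligand, was lost without st66 replicate 2 or st54 replicate 1 or 2 (0.0817 to 0.105).

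**Figure D3:**
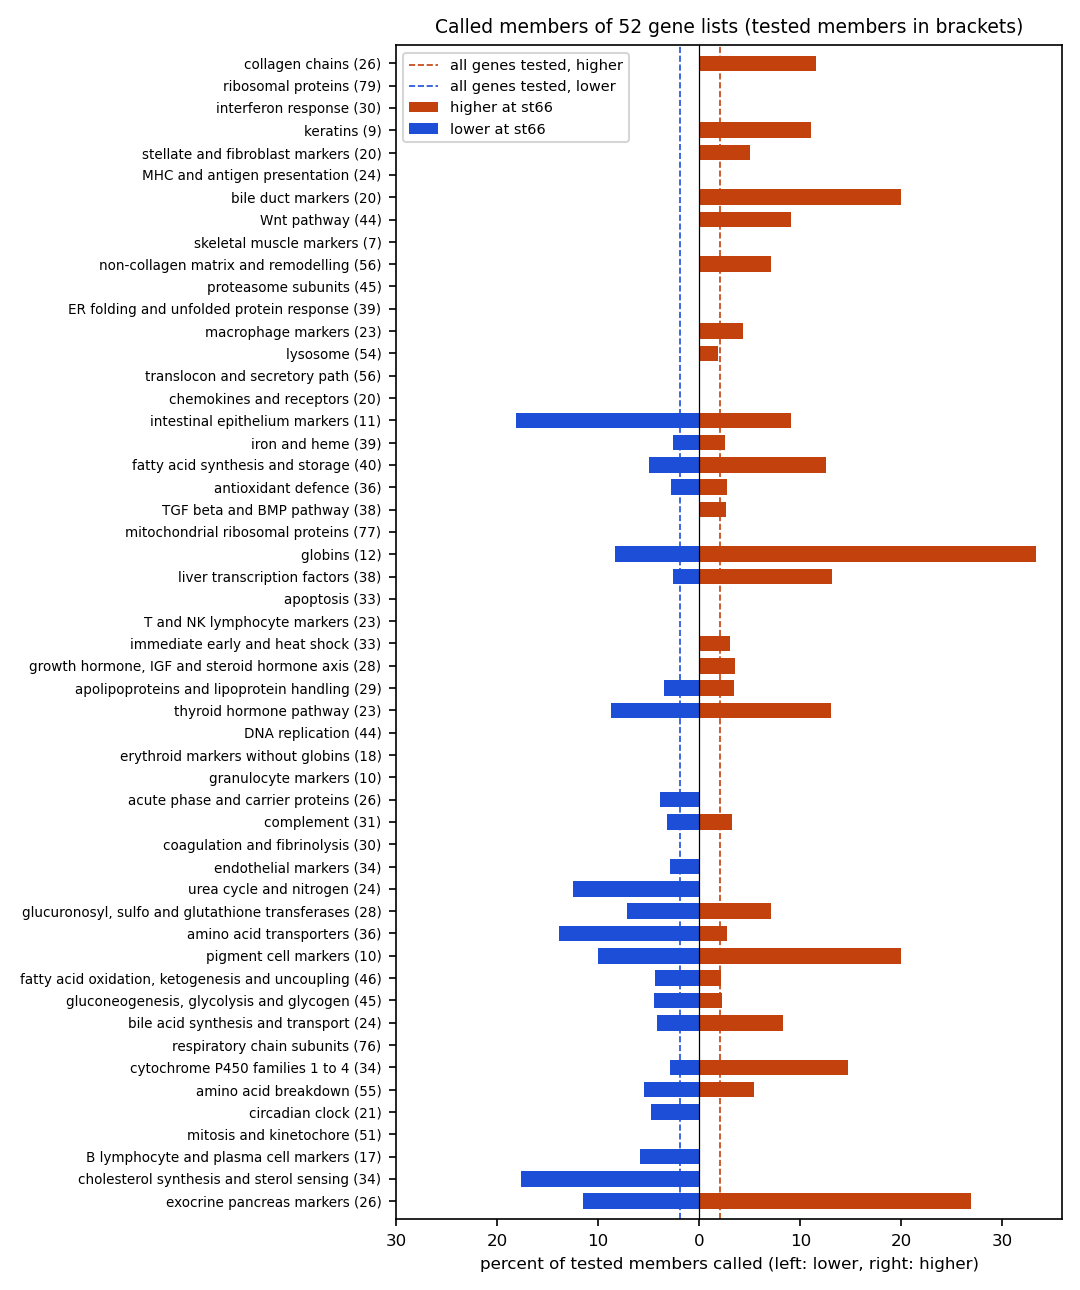
Percent of the tested members of 52 gene lists called at st66 against st54, higher to the right and lower to the left, with the number tested in brackets and the lists ordered by their median log2 difference; dashed lines mark the 2.09% and 1.91% of all genes tested that were called higher and lower. Collagen chains, bile duct markers and the Wnt pathway have calls on the right side only, cholesterol synthesis on the left side only, and exocrine pancreas markers on both.

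Markers of bile duct epithelium, 20 of them tested, had 4 called higher and none lower (5 and none without st66 replicate 1). DESeq2 and the fit with 12 libraries each called 5 higher and 2 lower. cldn3, a tight junction protein, was at 52.9, 46 and 69.5 CPM at st66, against 7.94, 15.7 and 8.93 CPM at st54 (5.14-fold higher; adjusted p = 0.0101), and its call held throughout. krt19, a keratin of duct cells, was at 393, 992 and 933 CPM at st66, against 135, 149 and 79.3 CPM at st54 (6.38-fold higher; adjusted p = 0.0208). aqp1, a water channel, was at 5.2, 13.5 and 22.3 CPM at st66, against 0.823, 0.837 and 1.32 CPM at st54 (13.8-fold higher; adjusted p = 0.0136). ehf, an epithelial transcription factor, was the fourth (16.7-fold higher; adjusted p = 0.0199). The last 3 were lost in 2 to 5 of the 6 fits that left out 1 library (up to 0.0888). The list as a whole did not separate: its summed level was 1112, 2229 and 2458 CPM at st66, against 1841, 1977 and 1375 CPM at st54. In this sum st66 replicate 1 was below the st54 range and replicates 2 and 3 were above it. sox9, chosen after its values were seen, was at 6.44, 12.8 and 42.1 CPM at st66, against 12.1, 18.3 and 4.04 CPM at st54. Endothelial markers had 1 of 34 tested lower (2.94%, against 1.91% of all genes tested), and 3 without st66 replicate 1. With all 6 libraries it was esam, an adhesion protein, which fell 3.55-fold (adjusted p = 0.0373, and 0.111 to 0.15 without st66 replicate 2 or 3 or st54 replicate 1 or 2).

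Digestive enzyme genes, which are made in the exocrine pancreas, an organ that lies against the liver, changed in opposite directions between copies. Of 26 tested, 7 rose and 3 fell, but the list's median log2 difference was -2.44. DESeq2 tested 30 and called 9 higher and 13 lower. Without st66 replicate 1, 9 were higher and 4 lower, and without st54 replicate 3, 7 were higher and 1 lower. prss3, a trypsinogen, was at 3.80, 59.6 and 32.9 CPM at st66, against 0, 0 and 0.155 CPM at st54 (adjusted p = 0.0127). try10, another trypsinogen, was at 5.88, 100 and 25.2 CPM at st66, against 0.0411, 0 and 0.233 CPM at st54 (adjusted p = 0.0156). ela3b, an elastase, was at 9.32, 77.8 and 16.6 CPM at st66, against 0.123, 0.0322 and 0.155 CPM at st54 (adjusted p = 0.0077). In these 3 genes st66 replicate 2 was the highest and replicate 1 the lowest library of the stage. ctrb2, a chymotrypsinogen, was at 3.92, 26.7 and 5.99 CPM at st66, against 0.0411, 0.0643 and 0.0777 CPM at st54 (adjusted p = 0.00832). Its neighbour on chromosome 4, ctrb1, went the other way, at 0.64, 1.84 and 1.25 CPM at st66, against 96.8, 7.85 and 22 CPM at st54 (adjusted p = 0.0348). cela2a, also an elastase, was at 0.04, 0.461 and 0.557 CPM at st66, against 57, 7.17 and 23.9 CPM at st54 (adjusted p = 0.016), and cpb1, a carboxypeptidase, at 3.24, 16.1 and 7.52 CPM, against 596, 68.6 and 197 CPM (adjusted p = 0.031). In the 3 that fell st54 replicate 1 was the highest. The summed level of the list was 681, 1654 and 727 CPM at st66, against 5426, 1296 and 2789 CPM at st54, so the groups overlapped in the sum, and the pancreatic lipase genes pnliprp1 and pnliprp3 were at 0 in all 6 libraries. How much pancreas each sample held was not tested. The calls of ela3b and ctrb2 held throughout. prss3 was at 0.0519 to 0.0585 without any 1 of the st54 libraries, try10 at 0.059 to 0.0643 without st54 replicate 1 or 2, cela2a at 0.0515 to 0.0671 without st66 replicate 2 or 3, cpb1 at 0.0505 to 0.113 without st66 replicate 2 or 3 or st54 replicate 1 or 3, and ctrb1 at 0.0526 to 0.114 without any 1 of the st66 libraries or st54 replicate 3. Near-identical copies make the split between them uncertain.

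The 3 st66 libraries disagreed among themselves in cell growth genes, though not only there. Of 51 mitosis genes tested none was called (3 had an unadjusted p under 0.05, and DESeq2 called none of 42), yet their summed level was 917, 171 and 194 CPM at st66, against 731, 702 and 582 CPM at st54. mki67, a protein of dividing cells, was at 111, 15.5 and 13.5 CPM at st66, against 54.2, 56.4 and 59.5 CPM at st54 (adjusted p = 0.911). Replicate 1 was above the st54 range and replicates 2 and 3 were below it. Without st66 replicate 1, 44 of the mitosis genes were called lower, where 4.80% of all genes tested were. Ribosomal protein genes had the reverse pattern. Their summed level was 63721, 203345 and 202030 CPM at st66, against 94803, 84487 and 126128 CPM at st54. None of 79 was called with all 6 libraries, none had an unadjusted p under 0.05 and DESeq2 called none, and 46 were called higher without st66 replicate 1, where 6.22% of all genes tested were. rps2 was at 2005, 7894 and 8836 CPM at st66, against 3273, 2995 and 5039 CPM at st54 (adjusted p = 0.599, and 0.0478 without st66 replicate 1). DNA replication genes followed mitosis, with none of 44 called (1 at unadjusted p under 0.05, none of 42 by DESeq2) and 17 called lower without st66 replicate 1. pcna, the sliding clamp, was at 122, 97.1 and 114 CPM at st66, against 122, 122 and 105 CPM at st54 (adjusted p = 0.93). Respiratory chain subunits had none of 76 called (7 at unadjusted p under 0.05, none by DESeq2, and 1 lower without st66 replicate 1). Their summed level was 10657, 16738 and 17722 CPM at st66, against 17004, 16756 and 25520 CPM at st54.

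**Figure D4:**
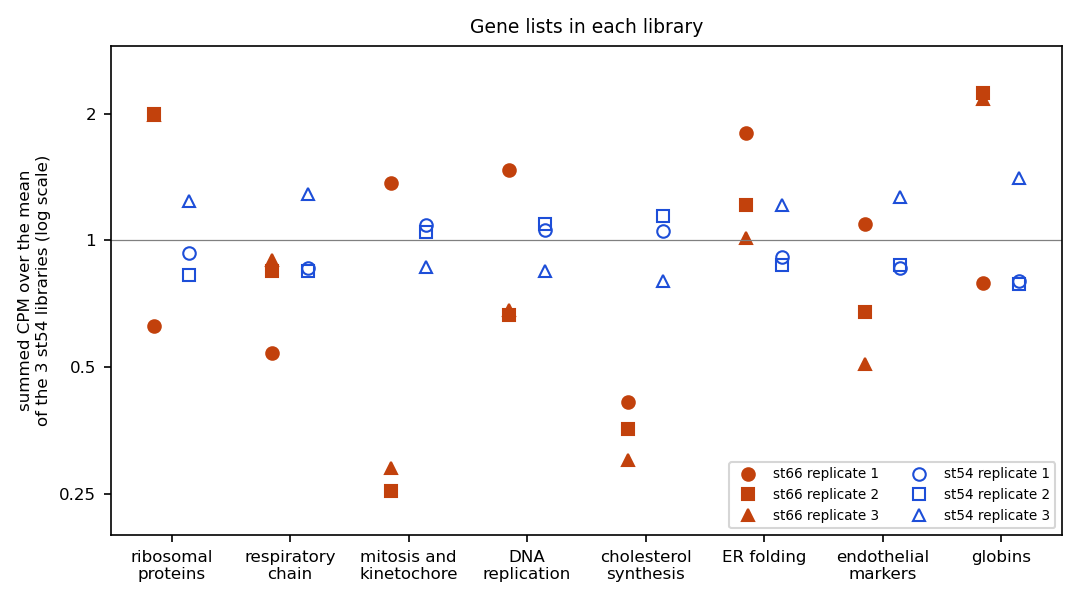
Summed CPM of 8 gene lists in each library, divided by the mean of the 3 st54 libraries (log axis); filled symbols are st66 and open symbols st54, with a circle, a square and a triangle for replicates 1 to 3. St66 replicate 1 lies on the other side of the st54 libraries from st66 replicates 2 and 3 in ribosomal proteins, mitosis and DNA replication, whereas in cholesterol synthesis all 3 st66 libraries lie below st54.

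The spread within stage 66 was uneven between genes. Among the 300 called genes that have a symbol and reach 10 CPM on average in one stage, the highest st66 library was a median of 1.63 times the lowest, against 1.57 times for the st54 libraries, and 26 genes were above 4 times. A call favours genes with a narrow spread within a stage, so these medians do not describe all genes tested. Over those the biological coefficient of variation was 39% in st66 and 32.4% in st54. Some of the widest ratios rest on few counts: hbe1 had 1, 0 and 3 counts at st66, and cela2a had 1, 3 and 4. gramd1c, which encodes a sterol-transfer protein, was the 1 among the 6 widest that was neither a digestive enzyme nor a globin: 4.96, 46.1 and 68.2 CPM at st66, against 1.48, 2.25 and 2.80 CPM at st54 (18.3-fold higher; adjusted p = 0.0423, and up to 0.144 when a library other than st66 replicate 1 was left out). Its adjusted p was 0.00305 without st66 replicate 1. The most even, beside fmo5.2 and c1s, included far1, which makes fatty alcohols for ether lipids, at 96.3, 101 and 92.9 CPM at st66, against 30, 19.1 and 22.4 CPM at st54 (4.05-fold higher; adjusted p = 0.00583). arid3a, a DNA-binding protein, was at 5.4, 5.84 and 5.57 CPM at st66, against 16.9, 19 and 16.5 CPM at st54 (3.12-fold lower; adjusted p = 0.00718). The calls of far1 and arid3a held throughout.

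The untreated st61 libraries show how far the same genes had come by the climax of metamorphosis. These levels are a description, on the CPM scale of the 6 libraries, with no test. The 12 largest decreases were already low at stage 61 with 1 exception. ucp1 was at 93.1 ± 36, 0.224 ± 0.0476 and 0.277 ± 0.243 CPM at stages 54, 61 and 66 (mean ± SD, n = 3 each), and slc38a4 at 214 ± 93.7, 2.65 ± 1.78 and 0.808 ± 0.78 CPM. The exception was ppp1r3c.2, at 266 ± 188, 197 ± 73.5 and 5.27 ± 2.26 CPM. Among the increases, zbtb20 was at 0.119 ± 0.117, 26.2 ± 4.86 and 17.4 ± 5.75 CPM, and hsd17b13 at 0.0214 ± 0.0372, 0.362 ± 0.387 and 18.0 ± 7.59 CPM. So zbtb20 was high by stage 61, while hsd17b13 and, with 0.0259 ± 0.0448, 0.541 ± 0.493 and 16.4 ± 18.7 CPM, cyp2a6.7 were high at stage 66 and not at stage 61. gpnmb was at 8.22 ± 5.32, 19 ± 2.85 and 163 ± 57.8 CPM. slc27a2, at 2.04 ± 2.80, 745 ± 151 and 158 ± 58.3 CPM, and gnmt, at 186 ± 40.9, 2452 ± 302 and 542 ± 146 CPM, were highest at stage 61. cat.1 was lowest there, at 2767 ± 334, 113 ± 19.5 and 814 ± 142 CPM.

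**Figure D5:**
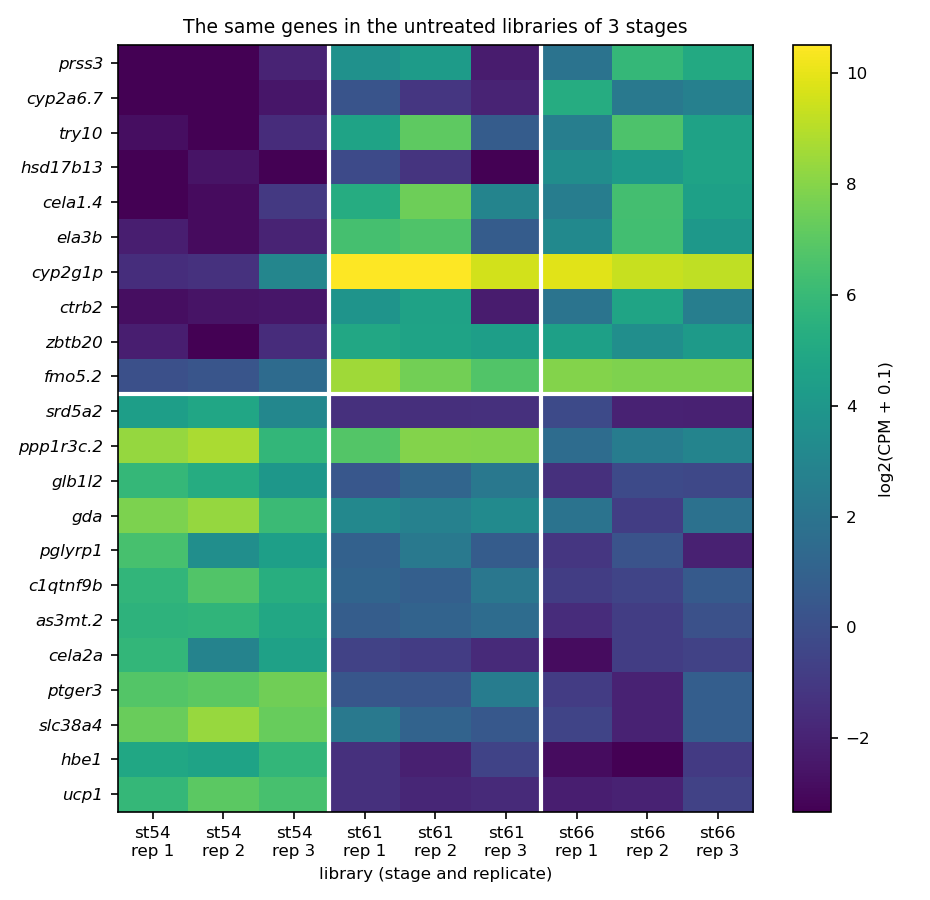
log2 of CPM plus 0.1 for 10 of the 12 largest increases (upper rows) and the 12 largest decreases (lower rows) in each untreated library at stages 54, 61 and 66. Of the decreases ppp1r3c.2 alone keeps a high level in the 3 st61 libraries, and of the increases hsd17b13 and cyp2a6.7 are low in all 3 st61 libraries.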

How the data were processed

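RNA was taken up with RNeasy from liver and libraries were made by standard Illumina protocols, per the labels' protocols. The authors deposited raw read counts per gene with gene coordinates, per the file headers, and these counts were used as deposited. The submitters' processing notes name cutadapt 3.4 and STAR 2.7.8a. Not given in the sources used here are the genome build, annotation, strand setting and handling of duplicates, so reads of overlapping genes and of near-identical copies may be split or merged. Of 26529 genes, 26288 (99.1%) have the start and end of the UCB_Xtro_10.0 assembly. 6 broken lines, of the 2 genes otogl2 and neb, were left out.

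The 6 libraries were filtered with filterByExpr, scaled by TMM and fitted alone with edgeR 4.0.16 (limma 3.58.1, R 4.3.3; robust quasi-likelihood, 4 residual degrees of freedom). A spread shared with the T3 libraries was avoided, since their biological coefficient of variation was 2.64%, against 39% in st66, 32.4% in st54 and 23.4% in st61. CPM were computed here from the counts on TMM-scaled totals of the tested genes. The summed level of a list covers all its members among the deposited genes, tested or not. Intervals of count ratios, and floors, reflect counting error alone: with no molecular identifiers, reads need not be separate molecules. The fit was also run on simulated counts in which the libraries of a stage shared the same means. That run cannot speak to a library that stands apart, as st66 replicate 1 does.

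Genes were named by a rule: the 12 largest called increases and decreases with at least 10 CPM and no overlap, the 8 largest called gains and losses of mean CPM, up to 4 called members of each of 52 lists in each direction, or the most abundant if none, 14 fixed genes, and the 6 genes each with the widest and narrowest st66 values. nfib, nfia, hnf4a, igf1, cyp7a1, sqle, ebp, abcg8, ass1, otc, pdk3, fasn, fabp7, hba3, hbd, sox9, star, duox2, il10, mael and pdilt were chosen after their values were seen. Members and lists were chosen with earlier results of these data known. Alternatives were other scalings, no filter, thinning, DESeq2 1.42.0, other sets of libraries, each library left out and a replicate block. Some names the rule gives are not reported here. No genome sequence was used, so no sequences are shown.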

Additional observations from a re-analysis of the deposited data

How the results depend on the processing

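With 296 genes called higher and 271 lower at st66, other scalings, no low-count filter, thinning to the smallest library and leaving out the 20 most abundant and the ribosomal protein genes gave 269 to 323 higher and 254 to 309 lower. The counts moved by over 1.5 times in the fits with more libraries: the 9 untreated libraries gave 630 and 468, and all 12 libraries 1243 and 827. DESeq2 gave 692 and 602. Leaving out 1 library gave 122 to 877 higher and 78 to 677 lower, the highest of both without st66 replicate 1 (877 and 677) and the lowest without st54 replicate 1 (122) and without st66 replicate 2 (78). With 1 library fewer, 3 residual degrees of freedom were left. The replicate block gave 191 and 161. The replicate numbers share only a number: deviations of same-numbered libraries correlated at -0.136, 0.0074 and -0.174. Of 122 called genes named by the rule, 54 kept the call under all 15 alternatives and 85 under all that kept the 6 libraries. None reversed, but the stages did not overlap in any called gene, so a reversal was hardly possible. Depth limits the genes at or under the floor in one stage, whose fitted folds are not bounds.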

Other observations

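Some genes read at one stage and at or under the floor at the other lie outside the groups described above. star, which brings cholesterol to the inner mitochondrial membrane in steroid-making cells, had no count in any st66 library, against 23, 29 and 13 counts in st54 replicates 1 to 3 (adjusted p = 0.0208 by edgeR, and 0.0362 to 0.0874 with 1 library left out). duox2, an oxidase that makes hydrogen peroxide, had 0, 1 and 0 counts at st66, against 24, 29 and 10 counts at st54 (adjusted p = 0.0415, and 0.0622 to 0.14 with 1 library left out). il10, an anti-inflammatory cytokine, had 3, 0 and 2 counts at st66, against 40, 106 and 12 counts at st54 (adjusted p = 0.0456, and 0.0408 to 0.154 with 1 library left out). mael, a piRNA pathway gene of the germ line in mouse and fly, had 20, 17 and 24 counts at st66, against 2, 3 and 2 counts at st54, and pdilt, a testis protein disulfide isomerase in mammals, had 29, 33 and 27 counts at st66, against 0, 2 and 2 counts at st54. Both of these were called higher at st66.

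msrb2, a mitochondrial methionine sulfoxide reductase, was at 38, 41.2 and 37.7 CPM at st66, against 7.94, 10.5 and 7.46 CPM at st54 (4.51-fold higher; adjusted p = 0.00318, and 0.00637 to 0.0255 with 1 library left out). ttc39b, a gene linked to plasma lipid levels in mouse, was at 17.2, 17.2 and 18.5 CPM at st66, against 2.43, 1.77 and 3.42 CPM at st54 (7.04-fold higher; adjusted p = 0.0035, and 0.00479 to 0.0231 with 1 library left out). In the skeletal muscle markers the summed level was 115, 97 and 808 CPM at st66, against 122 to 143 CPM at st54, so st66 replicate 3 alone lay above the st54 range and the other st66 libraries lay below it. In 6 of 7 muscle markers tested, replicate 3 was the highest st66 library, as it was in 32.5% of all genes tested. None of the 7 was called with all 6 libraries, and 1 muscle marker was called higher without st66 replicate 1. The muscle regulators myod1 and myog were at 0 in all 6 libraries.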
